A study of Mus musculus with 14 samples.

Results

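The genes of the inhibin, activin and anti-Müllerian hormone system of the granulosa were followed across ovaries of mice given dextran sulfate sodium (DSS) and of control mice. They were 8 genes chosen by name, Inha, Inhba, Inhbb, Fst, Fstl3, Amh, Amhr2 and Foxl2, from a table of 56748 genes, and each of the 8 names matched 1 gene. RNA sequencing covered 14 libraries of whole ovary from female wild-type C57BL/6J mice: 4 DSS and 3 control libraries at day 7, and 4 DSS and 3 control libraries at day 89. DSS is a polymer that is given to mice by mouth to injure the lining of the colon, and the series text describes the first time as the end of modelling and the second as a rest of 89 days. All groups share strain, sex, genotype and tissue, and neither the age of the mice nor the DSS dose is in the labels. The labels name the tissue as ovary, whereas their extraction protocol speaks of retinas. The labels do not say whether each library is a separate animal, and a p-value here sets a difference against the variation among libraries, whatever its source.

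Inhibins and activins are dimers of the transforming growth factor beta superfamily that granulosa cells, the somatic cells around the oocyte, assemble from shared subunits. An alpha subunit joined to a beta subunit gives inhibin, which lowers the release of follicle-stimulating hormone from the pituitary, and a pair of beta subunits gives activin, which raises it and also acts within the follicle. Follistatin binds activin and blocks it, and anti-Müllerian hormone from growing follicles restrains the recruitment of resting ones. In mice the beta A subunit rises in large antral follicles and anti-Müllerian hormone is highest in smaller growing ones, so that the levels of these genes in whole ovary depend on which follicles are present. In RNA from a whole organ, fewer cells of a type and less RNA per cell cannot be told apart.

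Levels are FPKM, the fragments counted per kilobase of a gene's length and per unit of depth, which allows genes to be compared with each other within a library. Differences were fitted as log2(FPKM + 1) with limma on 18006 genes that reached an FPKM of 0.5 in at least 3 libraries. A gene passed the test when its p-value, adjusted over all of these genes by the Benjamini-Hochberg method, was under 0.05. All 8 genes met the filter on low values. Fstl3 met it through day 89 and DSS libraries, since its 3 control libraries at day 7 lay under 0.5. Positions are those of the GENCODE M21 annotation on GRCm38, matched by gene ID.

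The starts of 3 genes are shown because the results differ most between them: Inhba has the widest spread of the 8 over libraries, Inhbb encodes the sister subunit that varied most closely with it, and Amhr2 was lower at day 89. RefSeq's table of promoters (GRCm38.p6, 250 bases before to 50 after each start) matched 6 of the 8 genes. Each sequence is given 5′ to 3′ on the strand of its gene, and capitals mark a TATA box (TATAAA) in Inhba, a GC box (GGGCGG, here as CCGCCC on the other strand) in Inhbb, and in Amhr2, in order, an SF-1 site (AAGGTCA), followed by a GATA site (GATAA, here as TTATC on the other strand) and a GC box (GGGCGG). The windows are chr13:16011601-16011900 on the plus strand for Inhba, chr1:119422199-119422498 on the minus strand for Inhbb and chr15:102445117-102445416 on the plus strand for Amhr2.
Inhba: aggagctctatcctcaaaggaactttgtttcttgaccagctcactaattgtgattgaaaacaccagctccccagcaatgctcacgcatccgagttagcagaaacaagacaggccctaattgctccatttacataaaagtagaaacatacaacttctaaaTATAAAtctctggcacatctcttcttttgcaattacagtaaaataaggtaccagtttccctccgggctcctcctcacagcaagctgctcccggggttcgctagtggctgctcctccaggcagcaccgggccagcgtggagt
Inhbb: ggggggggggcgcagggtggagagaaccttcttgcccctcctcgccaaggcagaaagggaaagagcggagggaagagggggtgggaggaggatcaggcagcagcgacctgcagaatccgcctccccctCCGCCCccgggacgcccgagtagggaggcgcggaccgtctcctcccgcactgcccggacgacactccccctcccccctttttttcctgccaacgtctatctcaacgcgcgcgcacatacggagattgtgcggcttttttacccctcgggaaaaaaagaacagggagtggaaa
Amhr2: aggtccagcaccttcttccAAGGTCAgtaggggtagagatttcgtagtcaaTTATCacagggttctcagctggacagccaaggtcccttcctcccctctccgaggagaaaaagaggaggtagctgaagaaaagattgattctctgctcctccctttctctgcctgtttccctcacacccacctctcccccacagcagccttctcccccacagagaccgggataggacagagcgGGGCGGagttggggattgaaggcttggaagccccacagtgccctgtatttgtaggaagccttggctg
The TATA box of Inhba begins 91 bases before its start, in a window with 47.7% G and C. The window of Inhbb holds 64.3% G and C and no TATAAA, and its GC box begins 122 bases before the start. In Amhr2 the SF-1 site begins 231 bases before the start, the GATA site 199 bases and the GC box 17 bases. Over the 32851 promoters of the table and both strands, TATAAA was in 13.6%, GGGCGG in 35.7%, AAGGTCA in 4.72% and GATAA in 25.4%. Neither TGACG, a core of the cyclic AMP response element (20.8% of promoters), nor the forkhead site TGTTTAC (3.65%) was in any of the 6 windows. The RefSeq starts used for Inha and Foxl2 lie 532 and 319 bases downstream of the GENCODE starts of these genes. Their windows leave out the bases before the GENCODE starts, so sites there were not looked for.

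Between 15256018 (DSS R29) and 18505144 reads (control 51) stood behind a library, as recovered from its FPKM values. In 3 day 7 libraries (DSS 75, control 10 and control 53) mitochondrial genes took 9.96 to 14.2% of reads, against 0.479 to 4.04% in the other 11. The 4502 longest genes, relative to the 4502 shortest, stood at 0.24 to 0.38 on the log2 scale in the libraries of day 89, except for -0.11 in DSS R38, and at -0.42 to -0.12 in those of day 7, each against the mean of the libraries. Values with this trend removed are given between the days for the 8 genes. For the gene lists, counts of genes passing are given where the counts reported below changed. The share of all genes that passed with the trend removed is not given here. All 10 granulosa markers listed (among them Fshr, Cyp19a1 and Hsd17b1) were detected, and their summed level was 575 ± 186 FPKM in DSS and 551 ± 98.5 FPKM in control ovaries at day 7, and 634 ± 162 FPKM in DSS and 556 ± 73.3 FPKM in control ovaries at day 89 (SD, n = 4 and 3). The 10 retina markers together reached at most 7.72 FPKM in any library and the 5 pituitary markers at most 4.32 FPKM.

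Inha was the most abundant of the 8 genes and Fstl3 the least abundant in each of the 14 libraries. In DSS ovaries at day 7 the order of mean levels was Inha, Amh, Inhbb, Amhr2, Foxl2, Fst, Inhba and Fstl3, whereas in control ovaries at day 7 it was Inha, Inhbb, Inhba, Foxl2, Amh, Amhr2, Fst and Fstl3. At day 89 the order was the same in DSS and control ovaries: Inha, Inhbb, Amh, Inhba, Foxl2, Amhr2, Fst and Fstl3. Among the neighbours in these orders, the ranges of libraries did not overlap for Amhr2 and Foxl2, Foxl2 and Fst, and Inhba and Fstl3 in DSS ovaries at day 7, for Inha and Inhbb, Amhr2 and Fst, and Fst and Fstl3 in control ovaries at day 7, for Inha and Inhbb and Fst and Fstl3 in both groups at day 89, and for Foxl2 and Amhr2 in control ovaries at day 89. All other neighbours overlapped. The fold between the highest and the lowest library was 27 for Inhba, 19 for Fstl3, 7.6 for Amh, 6.36 for Inha, 5.8 for Inhbb, 4.91 for Fst, 2.95 for Amhr2 and 1.78 for Foxl2.

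None of the 8 genes passed the limma test between DSS and control ovaries at day 7, where 6 of 18006 genes did (0.0333%). Amh and Foxl2, 2 of the 8, reached an unadjusted p under 0.05 (16% of all genes did). By voom on the recovered reads none of the 18006 genes passed between DSS and control ovaries at either day. Voom therefore adds nothing on the 8 genes in these comparisons. None of the 8 passed at day 89 by limma, where 1 gene of 18006 passed (0.00555%). At that day 4.58% of all genes, but none of the 8, had an unadjusted p under 0.05. Between the days, 2 genes were higher and 1 lower at day 89 in DSS ovaries (21.4% of all genes passed), and 1 was higher and 1 lower in control ovaries (31.8% of all genes passed). A change of the DSS effect between the days passed the test for none of the 18006 genes by limma (0%) or voom, with 2 of the 8 and 8.45% of all genes at an unadjusted p under 0.05. The comparisons share groups, so their counts are not independent. The median difference of the 8 genes was 0.10 for DSS at day 7, 0.00 for DSS at day 89, 0.27 for day 89 against day 7 in DSS ovaries and 0.39 in control ovaries, on the log2 scale, where the median over all genes was 0.00 in each.

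**Figure D1:**
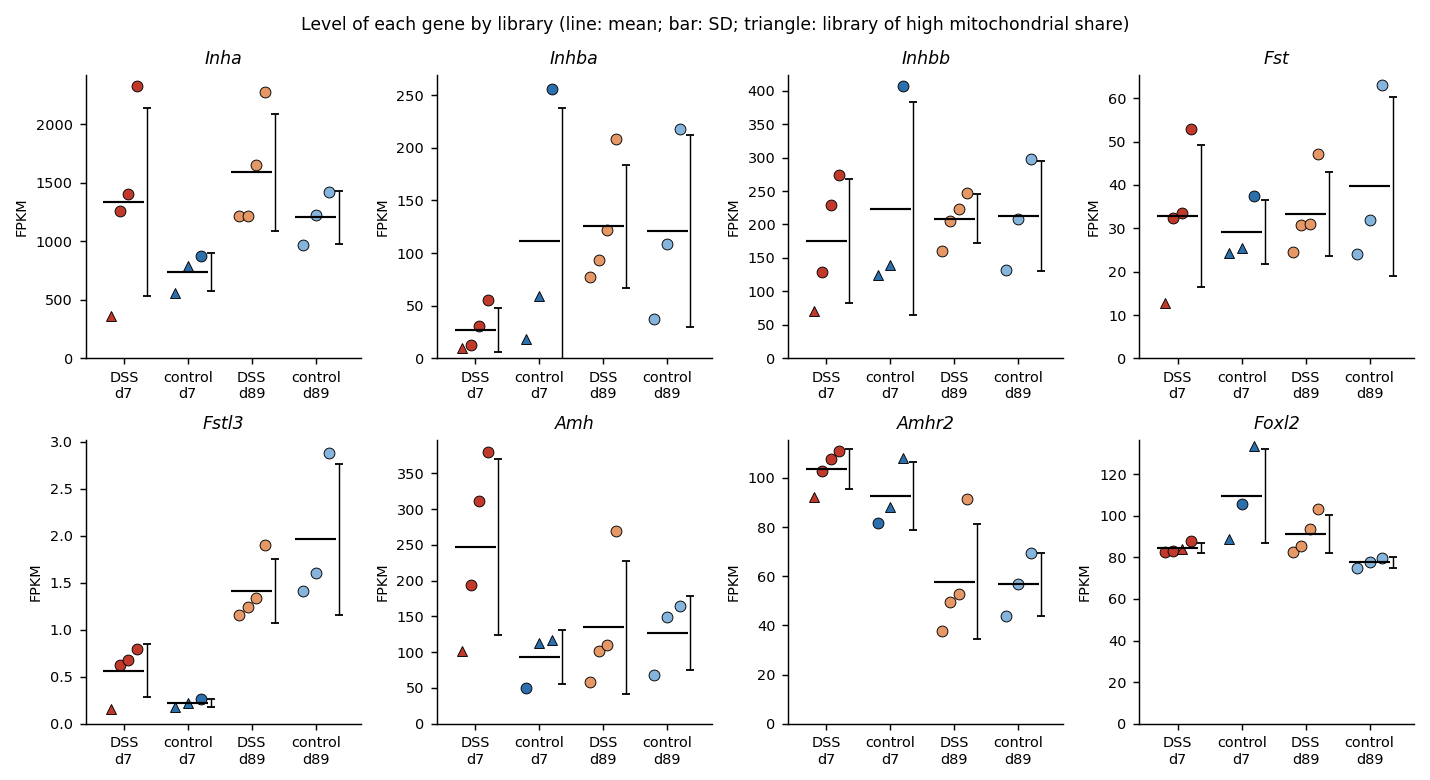
Level of each of the 8 genes in FPKM (vertical axis, from 0 and on its own scale per gene) in every library, with the group mean as a line and the SD as a bar that is cut at 0 for Inhba in control ovaries at day 7. Fstl3 is higher in every day 89 library than in every day 7 library, and the 4 DSS libraries of day 7 lie between 9.47 and 55.6 FPKM for Inhba.

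The subunit genes come first. Inha (chr1:75507077-75510366, plus strand) encodes the alpha subunit that is found in inhibin and not in activin. At day 7 its level was 366, 1262, 1406 and 2329 FPKM in DSS ovaries (libraries 75, 80, 81 and 82), against 787, 876 and 562 FPKM in control ovaries (libraries 10, 51 and 53). 3 of 4 DSS libraries lay above all controls, and library 75, one of those with a high mitochondrial share, lay below all of them. The day 89 libraries held 1220, 1653, 1219 and 2279 FPKM in DSS ovaries (R29, R38, R78 and R89), against 971, 1424 and 1228 FPKM in control ovaries (R123, R124 and R126). These groups overlapped, and R89 and R38 were the highest. The mean was 1341 ± 804 FPKM in DSS and 742 ± 162 FPKM in control ovaries at day 7, and 1593 ± 501 FPKM in DSS and 1208 ± 227 FPKM in control ovaries at day 89 (SD, n = 4 and 3).

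The DSS difference of Inha was 0.61 ± 0.48 (log2, SE) at day 7, with a limma adjusted p of 0.562, and 0.37 ± 0.48 at day 89, with an adjusted p of 0.949. Without DSS library 75, the DSS library below all controls, the day 7 difference was 1.14 and passed, with a limma adjusted p of 0.0482. The share of all genes that passed in that fit is not given here, and the count at day 7 moved widely with the library left out. Among the day 7 libraries rich in mitochondrial reads (1 DSS and 2 control) the difference was -0.86, and among the remaining ones (3 DSS and 1 control) 0.87, so the direction was not the same in both. The part of RNA quality in this difference was not tested. Between days the 3 control libraries of day 89 all lay above the 3 of day 7, by 0.71 ± 0.51, with a limma adjusted p of 0.306. Such a lack of overlap between days was seen for 45% of all genes in control ovaries.

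Inhba (chr13:16011851-16031621, plus strand) encodes the beta A subunit, which forms inhibin A and activin A. At day 7 its level was 9.47, 12.5, 30.7 and 55.6 FPKM in DSS ovaries, in the same order of libraries, against 18.6, 256 and 59.3 FPKM in control ovaries. All 4 DSS libraries lay below 2 of the 3 controls, and control 10 fell among them. By day 89 it stood at 93.3, 122, 77.7 and 208 FPKM in DSS ovaries, against 37.4, 218 and 108 FPKM in control ovaries. The DSS libraries lay within the range of the controls at that time. The mean was 27.1 ± 21.2 FPKM in DSS and 111 ± 127 FPKM in control ovaries at day 7, and 125 ± 58.2 FPKM in DSS and 121 ± 91.1 FPKM in control ovaries at day 89 (SD, n = 4 and 3).

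Within DSS ovaries Inhba rose by day 89, with 4 of 4 libraries above the 4 of day 7, by 2.39 ± 0.74 (log2, SE; 95% interval 0.79 to 3.99), and a limma adjusted p of 0.0363. It was the largest difference among the 8 genes in any of the 4 comparisons of 2 groups with 1 added to each FPKM, whereas with 0.1 added or by voom that of Fstl3 in control ovaries was larger. The call rested on the libraries: the adjusted p was 0.0988 without DSS 75, 0.0834 without DSS 80, 0.0562 without DSS 81, 0.0684 without R29, 0.0545 without R38, 0.0595 without R78 and 0.0917 without R89. With the length trend of each library removed, the difference was 2.23 and the adjusted p 0.0526, and with a term for the high mitochondrial share it was 1.86 with an adjusted p of 0.0501. With no filter on low values the adjusted p was 0.0862. In control ovaries the day difference was 0.53 ± 0.86, with a limma adjusted p of 0.663 and overlapping libraries. The DSS effect changed between the days by 1.86 ± 1.14, with a limma adjusted p of 0.671, so the test of the difference between DSS and control ovaries over time did not pass.

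At day 7 the DSS difference of Inhba was -1.59 ± 0.80 (95% interval -3.31 to 0.14), with an adjusted p of 0.351 by limma. Without control 51, the library of 256 FPKM, it was -0.62, and without control 10 it was -2.47. Among the libraries rich in mitochondrial reads it was -1.72, and -3.15 among the rest. At day 89 it was 0.27 ± 0.80, with an adjusted p of 0.982 by limma. Antisense transcripts overlap Inhba, B230303A05Rik and Gm48444, at no more than 0.538 and 2.61 FPKM in any library, and the sources used here do not say how strand was handled in counting.

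Inhbb (chr1:119415465-119422248, minus strand) encodes the beta B subunit of inhibin B and activin B. At day 7 its level was 70.2, 129, 230 and 274 FPKM in DSS ovaries, against 124.3, 407 and 140 FPKM in control ovaries. The day 89 libraries held 223, 204, 160 and 247 FPKM in DSS ovaries, against 133, 298 and 209 FPKM in control ovaries. The groups overlapped at both times, with control 51 the highest library and DSS 75 the lowest. The mean was 176 ± 92.8 FPKM in DSS and 224 ± 159 FPKM in control ovaries at day 7, and 209 ± 36.7 FPKM in DSS and 213 ± 82.5 FPKM in control ovaries at day 89 (SD, n = 4 and 3). The DSS difference was -0.31 ± 0.47 at day 7 (95% interval -1.33 to 0.70) and 0.03 ± 0.47 at day 89 (-0.99 to 1.05), with limma adjusted p-values of 0.782 and 0.999. The day difference was 0.41 ± 0.44 in DSS and 0.07 ± 0.51 in control ovaries, with limma adjusted p-values of 0.519 and 0.929.

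Fst (chr13:114452290-114458951, minus strand) encodes follistatin, which binds activin tightly and keeps it from its receptors. At day 7 its level was 12.8, 32.4, 33.4 and 52.98 FPKM in DSS ovaries, against 24.4, 37.5 and 25.5 FPKM in control ovaries. By day 89 it stood at 31.0, 30.7, 24.5 and 47.1 FPKM in DSS ovaries, against 24.0, 63.0 and 32.03 FPKM in control ovaries. The groups overlapped at both times, and DSS 75 was again the lowest library. The DSS difference was 0.04 ± 0.40 at day 7 (95% interval -0.83 to 0.91) and -0.17 ± 0.40 at day 89 (-1.04 to 0.70), with limma adjusted p-values of 0.975 at both times. The day difference was 0.13 ± 0.37 in DSS ovaries and 0.34 ± 0.43 in control ovaries, and neither passed (limma adjusted p 0.824 and 0.571).

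Fstl3 (chr10:79777272-79782630, plus strand) encodes a second, follistatin-like binder of activin and myostatin, and it was near the limit of detection at day 7. Its level at day 7 was 0.152, 0.676, 0.627 and 0.795 FPKM in DSS ovaries, on 5 to 37 reads per library, against 0.218, 0.265 and 0.176 FPKM in control ovaries, on 6 to 12 reads. At day 89 it was 1.24, 1.15, 1.90 and 1.34 FPKM in DSS ovaries, on 48 to 76 reads, against 2.88, 1.41 and 1.60 FPKM in control ovaries, on 61 to 129 reads. Every day 89 library lay above every day 7 library, in DSS and in control ovaries. Fstl3 was the one gene of the 8 that rose by day 89 in both, by 0.64 ± 0.18 in DSS ovaries (limma adjusted p 0.0251) and by 1.25 ± 0.21 in control ovaries (limma adjusted p 0.0011).

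These values understate the change of a gene at so low a level, because 1 is added to each FPKM. With 0.1 added they were 1.31 in DSS and 2.63 in control ovaries, and by voom on the reads 1.43 and 3.03. In control ovaries the rise passed in every alternative tried, with limma or voom adjusted p-values from 1.91e-06 to 0.0149. In DSS ovaries it did not pass without DSS 75 (0.50, limma adjusted p 0.0651), without R29 (0.67, 0.0502) or without R78 (0.54, 0.0805), nor without the 3 libraries of high mitochondrial share (0.50, 0.0779) or without the filter on low values (0.061). The DSS difference of Fstl3 was 0.34 ± 0.19 at day 7 and -0.27 ± 0.19 at day 89, with limma adjusted p-values of 0.41 and 0.924. At day 7, 3 of 4 DSS libraries lay above the 3 controls and library 75 below them. The change of the DSS effect was -0.61 ± 0.27, with an unadjusted p of 0.0431 and a limma adjusted p of 0.577.

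**Figure D2:**
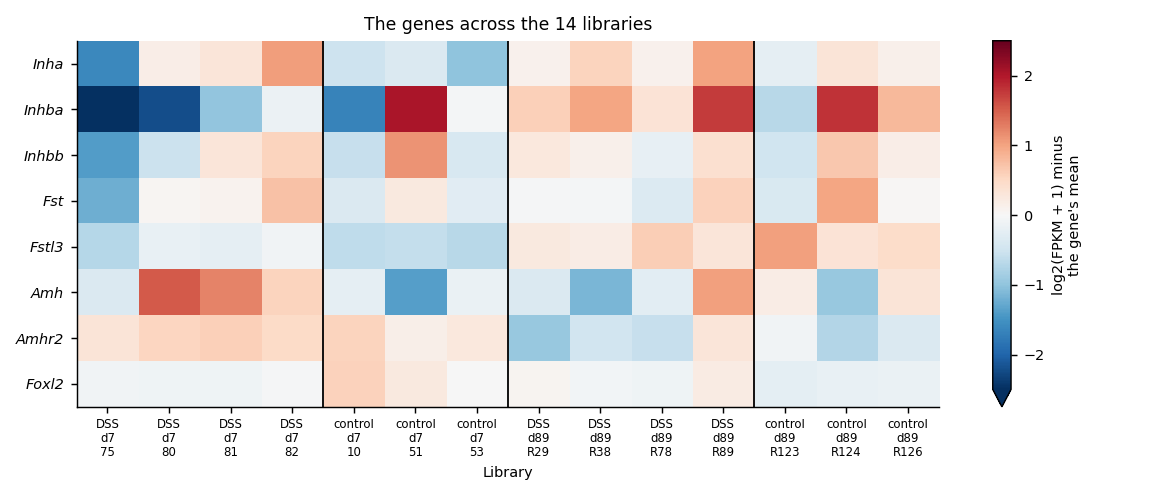
Level of each gene (rows) in each library (columns, by group) as log2(FPKM + 1) minus the mean of the gene, with red above and blue below the mean and black lines between groups. Inhba is lowest in DSS libraries 75 and 80 and highest in control 51, and Foxl2 stays close to its mean in all 14 libraries.

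Amh (chr10:80805243-80807648, plus strand) encodes anti-Müllerian hormone itself. At day 7 its level was 102, 380, 311 and 194 FPKM in DSS ovaries, against 112, 50 and 118 FPKM in control ovaries. Libraries 80, 81 and 82 lay above all controls, and library 75 lay among them. The day 89 libraries held 102, 58.5, 110 and 270 FPKM in DSS ovaries, against 149, 67.5 and 164 FPKM in control ovaries. These overlapped, and R89 alone exceeded the controls. The mean was 247 ± 123.3 FPKM in DSS and 93.3 ± 37.6 FPKM in control ovaries at day 7, and 135 ± 92.8 FPKM in DSS and 127 ± 52.1 FPKM in control ovaries at day 89 (SD, n = 4 and 3).

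The DSS difference of Amh at day 7 was 1.33 ± 0.53 (95% interval 0.18 to 2.48), with an unadjusted p of 0.0267 and a limma adjusted p of 0.258. It lay between 0.93 and 1.69 when any 1 library of day 7 was left out, with limma adjusted p-values of 0.0676 or more. It was -0.17 among the libraries rich in mitochondrial reads (1 DSS and 2 control) and 2.48 among the rest (3 DSS and 1 control). By day 89 it stood at -0.04 ± 0.53 (-1.19 to 1.11), with an adjusted p of 0.999 by limma. The change between the days was -1.36 ± 0.76, with a limma adjusted p of 0.65. Within DSS ovaries Amh at day 89 differed from day 7 by -0.93 ± 0.50 (limma adjusted p 0.191).

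Amhr2 (chr15:102445367-102454633, plus strand) encodes the type II receptor that binds anti-Müllerian hormone. At day 7 its level was 92.4, 108, 111 and 103 FPKM in DSS ovaries, against 108, 81.5 and 88.3 FPKM in control ovaries. At day 89 it was 37.7, 52.8, 49.4 and 91.5 FPKM in DSS ovaries, against 69.3, 43.9 and 56.99 FPKM in control ovaries. Each day 89 library lay below each day 7 library of the same treatment, with R89 closest to them. In DSS ovaries Amhr2 fell by day 89, with a log2 difference of -0.90 ± 0.23 (95% interval -1.39 to -0.42) and a limma adjusted p of 0.0148, to a mean of 57.9 ± 23.4 FPKM, against 103 ± 8.15 FPKM at day 7 (SD, n = 4 each). Without R29 the adjusted p was 0.0502, and in every other alternative tried the fall passed. In control ovaries the difference was -0.71 ± 0.26, with adjusted p-values of 0.0512 by limma and 0.0491 by voom. The DSS difference was 0.17 ± 0.24 at day 7 and -0.02 ± 0.24 at day 89, with limma adjusted p-values of 0.776 and 0.999.

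**Figure D3:**
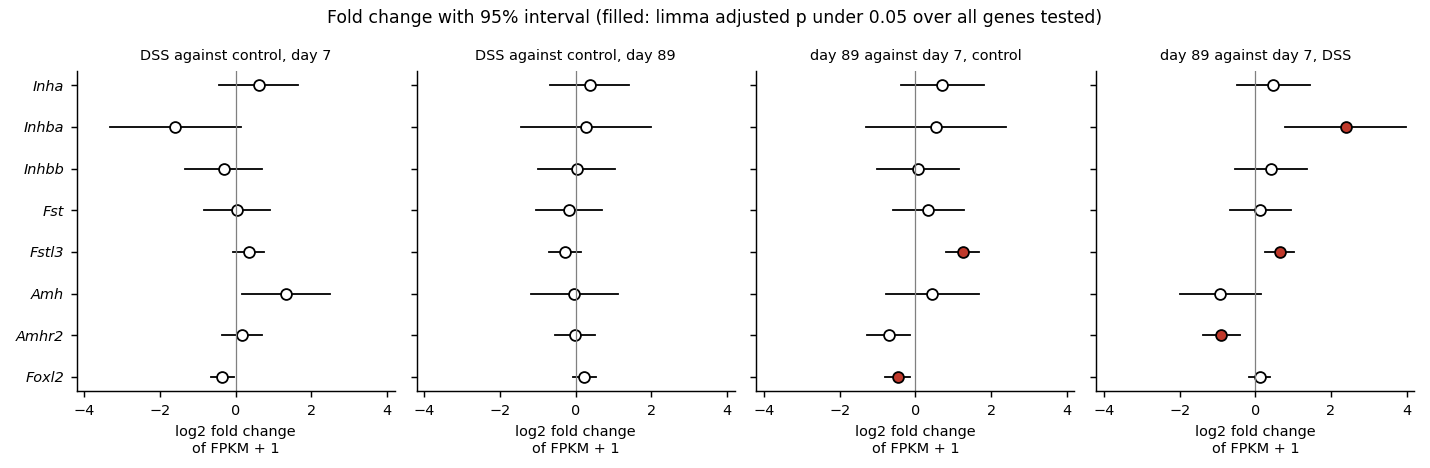
Log2 fold change of FPKM + 1 (horizontal axis) with its 95% interval for the 8 genes in the 4 comparisons of 2 groups, filled where the limma adjusted p was under 0.05. No point is filled in the DSS comparisons, and 5 are filled between the days: Fstl3 in both treatments, Inhba and Amhr2 in DSS ovaries and Foxl2 in control ovaries.

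Foxl2 (chr9:98955288-98958543, plus strand) encodes a forkhead transcription factor that keeps granulosa cells from taking on a testicular identity. At day 7 its level was 84.2, 83.1, 82.5 and 88.0 FPKM in DSS ovaries, against 134, 106 and 88.9 FPKM in control ovaries. The day 89 libraries held 93.7, 85.4, 82.6 and 103 FPKM in DSS ovaries, against 74.9, 77.9 and 79.9 FPKM in control ovaries. The groups did not overlap at either time: the DSS libraries lay below the controls at day 7 and above them at day 89. Foxl2 was the one gene of the 8 without overlap in these comparisons, and 12.1% of all genes had none at day 7 and 8.29% at day 89. The DSS difference was -0.35 ± 0.14 at day 7 (unadjusted p 0.028, limma adjusted p 0.26) and 0.23 ± 0.14 at day 89 (limma adjusted p 0.924). The day 7 value was -0.37 among the libraries rich in mitochondrial reads and -0.32 among the rest.

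The DSS effect on Foxl2 was 0.58 ± 0.20 higher at day 89 than at day 7, with an unadjusted p of 0.0128 and a limma adjusted p of 0.528, where 8.45% of all genes had an unadjusted p under 0.05. In control ovaries Foxl2 fell by day 89, with a log2 difference of -0.47 ± 0.15 and a limma adjusted p of 0.0312, to 77.6 ± 2.51 FPKM, against 109 ± 22.6 FPKM at day 7 (SD, n = 3 each). Of all genes, 15.7% passed downward in control ovaries. Control 10, the highest library for Foxl2, decided much of this fall: without it the difference was -0.32, with a limma adjusted p of 0.124. The adjusted p was also above 0.05 without R123 (0.0849), R124 (0.0672) or R126 (0.0666), with the libraries scaled to their own read totals (0.104), with the length trend removed (0.0516), with only the compared samples (0.0965) and with array weights (0.0512). It was 0.0835 without the 3 libraries of high mitochondrial share and 0.0933 with a term for them. In DSS ovaries the day difference was 0.11 ± 0.13 (limma adjusted p 0.591), and 24.8% of all genes had no overlap between days there, as had Inhba, Fstl3 and Amhr2. An antisense gene, Foxl2os, shares 12 bases with Foxl2 and stood at 9.74 to 35.8 FPKM.

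Testis supporting cell genes that FOXL2 is known to oppose in the mouse ovary, or that mark Sertoli cells, were listed as 6 genes. Of these, Dmrt1 was at 0 in every library but 1 of DSS day 89, and Sox9, which drives Sertoli cell fate, averaged 0.926 ± 0.361 FPKM in DSS and 0.893 ± 0.124 FPKM in control ovaries at day 7, and 0.746 ± 0.169 FPKM in DSS and 0.725 ± 0.273 FPKM in control ovaries at day 89 (SD, n = 4 and 3). Another 3 reached higher levels, with at most 17.5 FPKM in any library for Ptgds, which makes prostaglandin D2, 9.5 FPKM for Cldn11, a tight junction protein, and 6.72 FPKM for Dhh, a hedgehog ligand. Of 5 tested, Sox8, a relative of Sox9, passed in 1 comparison, with a difference of -0.50 ± 0.16 between day 89 and day 7 in DSS ovaries (limma adjusted p 0.046), where 10.7% of all genes passed downward. Its mean there was low, at 0.309 FPKM at day 89 and 0.869 FPKM at day 7. With the length trend removed, 0 of the 5 passed in that comparison.

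Ratios between the genes within a library do not depend on how that library was scaled, but they can carry its length trend. Inha, with a length of 1475 bases, is among the 4502 shortest genes, and Inhba, with 6390 bases, is among the 4502 longest. The ratios were not computed with the length trend removed, and its part in them was not tested. The level of Inhba relative to Inha was 0.0259, 0.00987, 0.0218 and 0.0239 in DSS ovaries at day 7, against 0.0237, 0.292 and 0.106 in control ovaries. DSS libraries 80 and 81 lay below the lowest control, and DSS libraries 75 and 82 lay just above it. By day 89 it stood at 0.0764, 0.074, 0.0637 and 0.0914 in DSS ovaries, against 0.0385, 0.153 and 0.0883 in control ovaries. In DSS ovaries the 4 libraries of day 89 all lay above the 4 of day 7, by 1.99 on the log2 scale (-3.72 ± 0.21 at day 89 and -5.71 ± 0.64 at day 7, SD). An exact two-sided permutation test gave p = 0.0286, the smallest that 4 libraries against 4 can give, and an adjusted p of 0.229 over the 24 tests of 6 ratios in 4 comparisons.

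In DSS ovaries the level of Inhba also stood closer to that of Inhbb at day 89. Inhba relative to Inhbb was 0.418, 0.598, 0.484 and 0.842 in DSS ovaries at day 89, against 0.135, 0.0969, 0.134 and 0.203 in DSS ovaries at day 7. The groups did not overlap, and the log2 difference was 2.04 (exact permutation p = 0.0286, adjusted 0.229). Follistatin relative to the sum of both beta subunits went the other way, at 0.098, 0.0938, 0.103 and 0.103 in DSS ovaries at day 89, against 0.161, 0.23, 0.128 and 0.161 in DSS ovaries at day 7. The log2 difference was -0.74 (exact permutation p = 0.0286, adjusted 0.229), again without overlap. In control ovaries both ratios overlapped between the days. There Inhba relative to Inhbb was 0.282, 0.734 and 0.52 at day 89, against 0.15, 0.629 and 0.424 at day 7, with a log2 difference of 0.48 (exact permutation p = 0.6) that turned to -0.12 without control 10. Follistatin relative to both beta subunits differed by 0.17 in control ovaries (exact permutation p = 0.9). The smallest p that 3 libraries against 3 can give is 0.1. At day 7 the DSS difference was -2.24 for Inhba relative to Inha (exact permutation p = 0.171), -1.32 for Inhba relative to Inhbb (p = 0.114, exact) and 1.17 for Amh relative to Amhr2 (p = 0.114, exact). With 4 libraries against 3 the smallest p is 0.0571, and none of the 24 ratio tests had an adjusted p under 0.05.

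**Figure D4:**
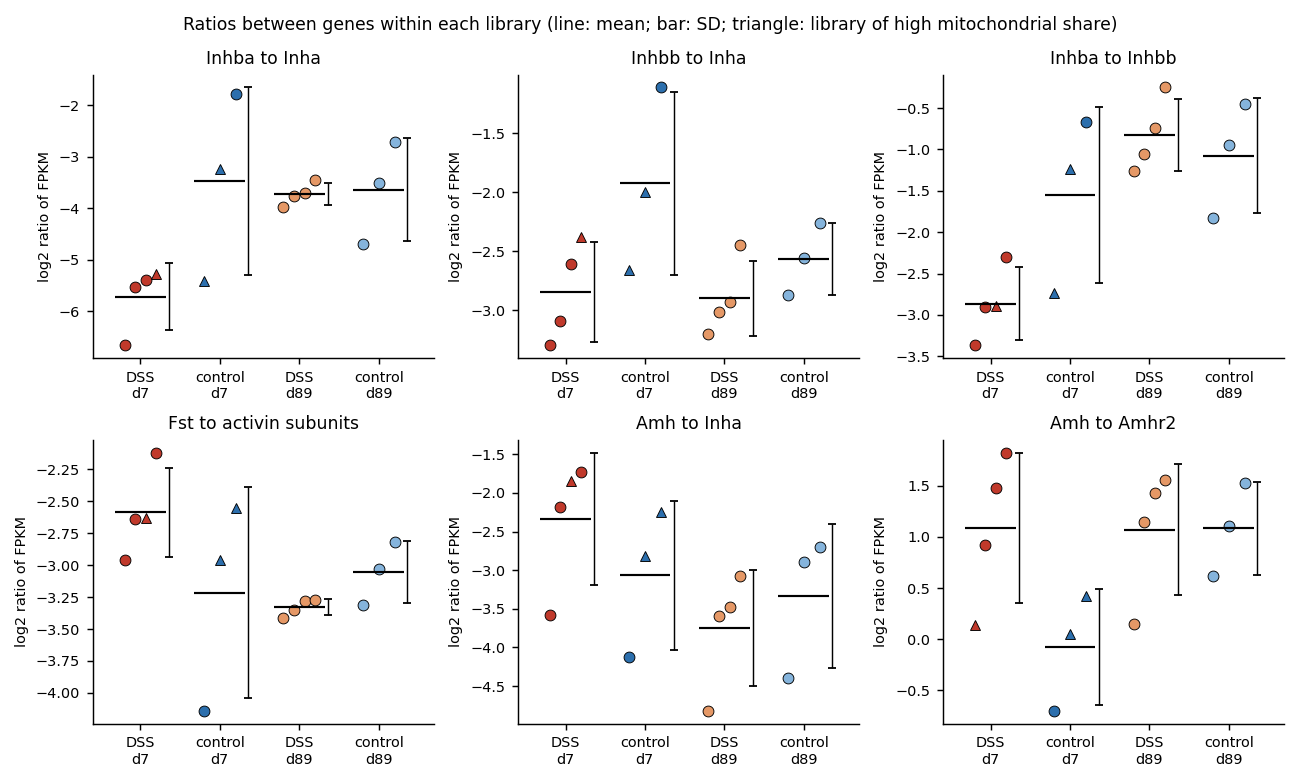
Log2 ratio of FPKM between genes (vertical axis) in every library for 6 ratios, with the group mean as a line and the SD as a bar, and triangles for the libraries of high mitochondrial share. Inhba relative to Inha and to Inhbb is higher in all 4 DSS libraries of day 89 than in all 4 DSS libraries of day 7.

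How the genes varied among libraries of the same group was described after each group mean was subtracted, over 14 libraries, with the depth and the mitochondrial share of a library common to all 8 of its values. Inhba and Inhbb varied most closely together (Pearson r 0.92, Spearman rho 0.92), followed by Inha and Fst (r 0.89, rho 0.84) and Inhbb and Fst (r 0.87, rho 0.88). Inha and Inhbb had r 0.77 (rho 0.77), and Inhba and Fst r 0.79 (rho 0.83). Amh varied with its receptor Amhr2 (r 0.69, rho 0.73) and not with the beta subunits (r -0.19 with Inhba and -0.07 with Inhbb). Without DSS 75, the library lowest in Inha, Inhba, Inhbb and Fst, the r was 0.94 for Inhba and Inhbb, 0.83 for Inha and Fst and 0.71 for Amh and Amhr2. The SD within groups, on the log2 scale, was 1.23 for Inhba, larger than for 99.7% of all genes tested, 0.81 for Amh, 0.71 for Inhbb, 0.69 for Inha and 0.60 for Fst, and 0.16 for Foxl2, larger than for 11.7%.

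Other genes with the most similar pattern were looked up among 12333 named genes with a mean of at least 1 FPKM, again with group means subtracted. Those nearest to Inhba were Colgalt2 (r 0.96), Nup62cl (0.96) and Kif5c (0.91), and Colgalt2 (0.95) and Nup62cl (0.92) were also among the 3 nearest to Inhbb, with Tubgcp5 (0.93). Inha was nearest to Rev1 (0.97), Txndc5 (0.93) and Sh2d4a (0.92), and Fst to Phex (0.94), Tom1l1 (0.92) and St3gal4 (0.92). Amh was nearest to Rfpl4 (0.98), Alpk3 (0.97) and Col9a2 (0.95), Amhr2 to Ephb6 (0.91), H19 (0.91) and Folr1 (0.90), Fstl3 to Pon3 (0.95), Fer (0.93) and Aldh6a1 (0.92), and Foxl2 to B3galt4 (0.87), Rab7 (0.86) and Dusp9 (0.82). With group means kept, differences between groups also enter the r, and this is given here for Inhba alone. The 3 nearest were then Nup62cl (r 0.95, rho 0.96), Cyp19a1 (r 0.91, rho 0.95) and Mgl2 (r 0.91, rho 0.92), over 14 libraries. Cyp19a1, the aromatase that makes estrogen in granulosa cells of large follicles, was not among the 3 nearest with group means subtracted.

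Cyp19a1 was the granulosa marker with the largest DSS difference at day 7. Its level was 0.706, 1.06, 0.795 and 2.72 FPKM in DSS ovaries, against 1.77, 74.6 and 7.55 FPKM in control ovaries. Control 51 was highest for Cyp19a1 as it was for Inhba and Inhbb, and control 10 fell among the DSS libraries. The difference was -2.46 ± 0.97 (log2, SE), with an unadjusted p of 0.0234 and a limma adjusted p of 0.248. None of the 10 granulosa markers passed the limma test in any comparison of all libraries. Between DSS and control ovaries 1 of the 10 had an unadjusted p under 0.05 at each day. It was Cyp19a1 at day 7, lower (16% of all genes were under 0.05). At day 89 it was Fshr, the receptor of follicle-stimulating hormone, higher (1.01 ± 0.41, limma adjusted p 0.924, with 4.58% of all genes under 0.05 unadjusted). With DSS 75, control 10 and control 53 left out, the only day 7 control is library 51, assumed to vary like the other groups, and 2 of the 10 passed at day 7, both lower in DSS ovaries, where 2.22% of all genes passed downward and 2.87% upward. They were Cyp19a1 (-4.98 ± 1.13, limma adjusted p 0.0386) and Kitl, the kit ligand that granulosa cells present to the oocyte (-0.90 ± 0.21, 0.04), the second of them chosen after its values were seen.

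Markers of other cell types were also listed, and none of them passed the limma test between DSS and control ovaries over all libraries. At day 7 all 10 oocyte markers had higher levels with DSS, with a median log2 difference of 0.80 and 5 of 10 at an unadjusted p under 0.05 (16% of all genes). Their summed level was 276 to 452 FPKM in DSS and 137 to 208 FPKM in control ovaries. Of 8 luteal markers 6 lay lower in DSS ovaries at day 7 (median -0.72), with a sum of 2112 to 3253 FPKM in DSS and 2714 to 3438 FPKM in control ovaries. All 5 erythrocyte markers tested lay higher in DSS ovaries (median 1.86, sum of the 6 listed 410 to 726 FPKM in DSS and 49.9 to 310 FPKM in control ovaries). The same 5 lay higher with DSS at day 89 (median 1.68), 3 of them at an unadjusted p under 0.05 by limma (4.58% of all genes). Their sum was then 44.4 to 656 FPKM in DSS and 42.7 to 45.6 FPKM in control ovaries. At day 7 all 3 neutrophil markers tested also lay higher in DSS ovaries (median 3.03, sum of the 6 listed 11.3 to 129 FPKM in DSS and 0.824 to 2.19 FPKM in control ovaries). With the length trend removed, 1 of these 3 passed by limma as higher at day 7. Of 5 theca markers 3 lay higher, with a median of 0.02 and a sum of 38.7 to 56 FPKM in DSS and 36 to 105 FPKM in control ovaries, and none passed in any comparison.

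Without the 3 libraries of high mitochondrial share, against control 51 alone, the day 7 median was 1.41 for oocyte, -1.75 for luteal, 0.50 for erythrocyte (4 of 5 higher), 2.16 for neutrophil and -0.03 for theca markers. Of these, Cyp11a1, which starts steroid synthesis in luteal and other steroid-making cells, then passed as lower (limma adjusted p 0.0484), and the neutrophil genes S100a8 (0.017) and S100a9 (0.022) as higher. These 3 were named after their values were seen. Between the days in DSS ovaries 9 of 10 oocyte markers fell (median -1.46; 10.7% of all genes passed downward), and 7 of 10 without the 3 libraries (10%). In control ovaries all 10 lay lower at day 89 and 4 passed (median -0.71; 15.7% of all genes), and 1 passed without the 3 libraries (9.2%). With the length trend removed, 6 of the 10 oocyte markers passed downward in DSS and 3 in control ovaries, where 1 lay above 0. The sum of the oocyte markers at day 89 was 55.2 to 176 FPKM in DSS ovaries. Of the 8 luteal markers all lay higher at day 89 in both treatments, and 4 passed in DSS ovaries (10.7% of all genes passed upward) and 0 in control ovaries by limma, where 1 had an unadjusted p under 0.05. With the length trend removed, 4 of the luteal markers passed in DSS and 1 in control ovaries. Their sum at day 89 was 3493 to 5694 FPKM in DSS and 4245 to 5364 FPKM in control ovaries. No marker of the oocyte, luteal, erythrocyte or neutrophil lists was at 0 throughout. The part of these cells in the differences of the 8 genes was not tested.

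Other genes of the pathway were counted from lists, beginning with ligands. Of 14 other ligands, 10 were tested. By day 89, 3 of the 10 fell in DSS ovaries (10.7% of all genes passed downward), and 1 fell and 1 rose in control ovaries (15.7% downward, 16.1% upward). With the length trend removed, 4 passed downward in DSS ovaries, and 1 passed downward and 0 upward in control ovaries. In DSS ovaries Gdf9 and Bmp15, factors secreted by the oocyte, fell by day 89 by a log2 difference of -1.80 ± 0.42 and -1.47 ± 0.34 (limma adjusted p 0.0106 for each), and Bmp7, which acts on granulosa cells, differed by -0.58 ± 0.13 (0.00777). In control ovaries Gdf9 fell (-1.74 ± 0.48, limma adjusted p 0.0152) and Tgfb1 rose (0.68 ± 0.24, 0.0425), and neither passed without the 3 libraries of high mitochondrial share. None passed between DSS and control ovaries by limma. At day 7, 4 of the 10 had an unadjusted p under 0.05 (16% of all genes did), all higher in DSS ovaries. Among them were Bmp7 (0.62 ± 0.14, limma adjusted p 0.0839) and Bmp15 (0.87 ± 0.37, 0.269).

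Receptors that bind activins, inhibin or related ligands lay higher at day 89 in both treatments. In DSS ovaries 4 of 10 tested passed, with all 10 above 0 and a median of 0.48, and in control ovaries 6 of 10 passed, with all 10 above 0 and a median of 0.77. Of all genes, 10.7% passed upward in DSS and 16.1% in control ovaries. The type II activin receptor Acvr2a rose to 5.34 ± 1.46 FPKM in DSS ovaries at day 89, against 2.83 ± 0.906 FPKM at day 7 (log2 difference 0.73 ± 0.22, limma adjusted p 0.0314), and to 6.01 ± 0.371 FPKM in control ovaries, against 2.26 ± 0.86 FPKM (1.13 ± 0.25, 0.00513). The type I activin receptor Acvr1b rose in both as well (0.52 ± 0.17 in DSS and 0.80 ± 0.20 in control ovaries, limma adjusted p 0.0476 and 0.00927). With the length trend of each library removed, 2 receptors passed in DSS and 5 in control ovaries, and without the 3 libraries of high mitochondrial share 2 passed in each, where 8.14% of all genes passed upward in DSS and 8.74% in control ovaries. None passed between DSS and control ovaries by limma, with 2 at an unadjusted p under 0.05 at day 7 (16% of all genes) and 0 at day 89 (4.58%).

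Among the 8 SMADs, which carry the signal from these receptors to the nucleus or inhibit it, Smad9 rose in DSS ovaries by day 89 (0.79 ± 0.23, limma adjusted p 0.0287), 1 of 8 where 10.7% of all genes passed upward. In control ovaries 5 of 8 rose, where 16.1% of all genes passed upward: Smad2 and Smad3, which transmit activin signals, by 0.92 ± 0.27 and 0.53 ± 0.15, the common partner Smad4 by 0.84 ± 0.26, the inhibitory Smad7 by 0.98 ± 0.33 and Smad9 by 0.77 ± 0.27, with limma adjusted p-values of 0.0184 to 0.0425. With the length trend removed, 1 of the 8 passed in control ovaries and 0 in DSS ovaries, with no share of all genes given beside them. Without the 3 libraries of high mitochondrial share 0 passed in DSS ovaries. In control ovaries, against control 51 alone at day 7, 6 of 8 SMADs then lay above 0, with a median of 0.58. Of 4 convertases 1 rose in DSS and 2 in control ovaries. Furin, a convertase that cleaves the precursors of these ligands, rose by 0.65 ± 0.15 in DSS ovaries (limma adjusted p 0.0108) and by 1.48 ± 0.17 in control ovaries (0.00026). Of 9 secreted or membrane antagonists tested, Nog, which binds bone morphogenetic proteins, fell in DSS ovaries (-1.11 ± 0.26, limma adjusted p 0.0117) and Twsg1 rose in control ovaries (0.89 ± 0.20, 0.00551). No SMAD, antagonist or convertase passed between DSS and control ovaries by limma over all libraries, and without the 3 libraries of high mitochondrial share Nog was higher in DSS ovaries at day 7 (1.47 ± 0.35, limma adjusted p 0.0432), again against control 51 alone. At an unadjusted p under 0.05 stood 1 of 8 SMADs, 2 of 9 antagonists and 2 of 4 convertases at day 7, where 16% of all genes did, and 1 of 8 SMADs at day 89, where 4.58% did.

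**Figure D5:**
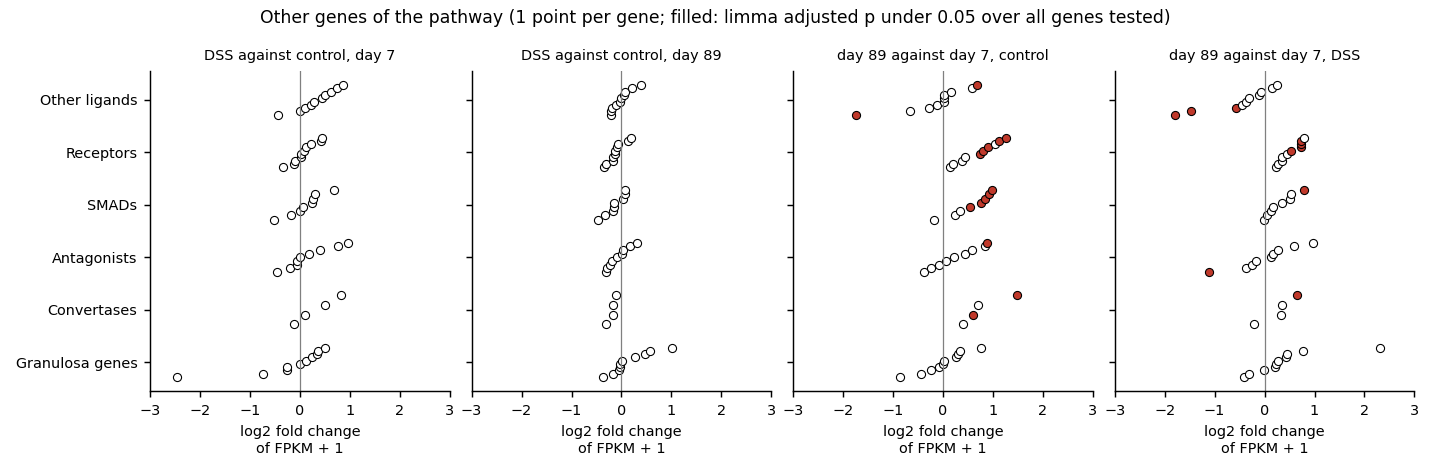
Log2 fold change of FPKM + 1 (horizontal axis) of the other pathway genes, 1 point per gene, by list (vertical axis) in the 4 comparisons of 2 groups, filled where the limma adjusted p was under 0.05. Filled points are found between the days, where receptors lie above 0 in both treatments, and none is found in the DSS comparisons.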

How the data were processed

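A TruSeq kit was used on total RNA, per the labels' protocols. HISAT2 2.0.5 and build GRCm38 are named in the submitters' processing notes. For the counter, the annotation release and strand handling: not given in the sources used here. The authors deposited FPKM values, 1 column per library, with a gene length per gene. In each column, FPKM times length came out as whole reads (100% of values under 300 reads were whole to 0.01), which gave the totals. The deposited values already carry a factor per library that centres the median gene, so a library with more mitochondrial reads does not have lower FPKM for that reason.

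log2(FPKM + 1) was fitted with limma 3.58.1 (R 4.3.3, limma-trend), with 4 group means over all 14 libraries and Benjamini-Hochberg adjustment over 18006 genes. The design named a count test should counts be present; the table holds FPKM, and limma was the test named for FPKM. Ratios were tested with exact two-sided permutation tests (scipy 1.17.1). The limma step was tested on simulated data. Samples were grouped by title. Alternatives were another pseudocount, no filter, other scalings, voom on the recovered reads, array weights, the libraries of high mitochondrial share left out or given a term, only the compared samples, each library left out, and, added after seeing the data, the length trend removed. The 8 genes, the lists and the tests were chosen with earlier results of these data known. All 8 genes are named, with the 3 genes nearest in pattern to each (mean FPKM of at least 1, unnamed genes left out), and list genes that passed a test or had the largest DSS difference of their list.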

Additional observations from a re-analysis of the deposited data

Results flagged for a closer look

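Foxl2 was picked out because its DSS effect differed in direction between the times: all 4 DSS libraries lay below the 3 controls at day 7, and all 4 lay above the 3 controls at day 89. The effect at day 89 minus that at day 7 was 0.58 on the log2 scale, with an unadjusted p of 0.0128 and a limma adjusted p of 0.528 over all genes, so the difference did not pass its test. Foxl2 spanned 82.5 to 88.0 FPKM in DSS and 88.9 to 134 FPKM in control ovaries at day 7, and 82.6 to 103 FPKM in DSS and 74.9 to 79.9 FPKM in control ovaries at day 89. Without control 10, the highest library, the effect changed by 0.42. Among 28 sets of 4 libraries (the levels of the 8 genes and the 6 ratios in both DSS groups), none held a library beyond Dixon's critical value at 95%.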

How the results depend on the processing

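No paired analysis was possible because no library number recurs between groups. With 3 or 4 libraries a group, differences of the size seen for Inhba and Amh at day 7 did not pass, and an adjusted p above 0.05 does not show that groups were alike. The cause of each change below was not tested, unless a setting leaves fewer libraries or genes. Between DSS and control at day 7, the count of 6 genes was 2 with a pseudocount of 0.1, 1 with libraries scaled to their own read totals, 0 by voom, 7133 with array weights, 915 without the 3 libraries of high mitochondrial share, 20 with a term for them, 0 with only the compared samples and 0 to 1221 with each library left out. At day 89 the count of 1 was 0 with a pseudocount of 0.1, 5 with no filter, 0 by voom, 92 with array weights, 0 without the 3 libraries, 0 with only the compared samples, 0 with the length trend removed and 0 to 2 with each library left out. For day 89 against day 7, the 3860 genes in DSS ovaries were 7956 with array weights and 2034 to 4930 with each library left out, and the 5732 in control ovaries were 11786 with array weights, 3231 without the 3 libraries, 3141 with the term and 3695 to 6034 with each library left out. For the change of the DSS effect, 0 became 2 with no filter, 4226 with array weights, 3 without the 3 libraries and 0 to 41 with each library left out. Of the 8 genes, 3 passed with array weights and 0 to 1 with each library left out for DSS at day 7, and 3 with array weights for the change of the DSS effect. Between the days, 1 passed in DSS ovaries with no filter and 0 to 3 with each library left out, and in control ovaries 1 passed scaled to own totals, 1 without the 3 libraries, 1 with the term, 1 with the length trend removed, and 1 to 2 with each library left out. Directions that turned belong to differences that had not passed. With array weights, DSS at day 7 was 0.36 for Inhbb, DSS at day 89 -0.07 for Inhba and -0.09 for Inhbb, day 89 against day 7 in DSS ovaries -0.11 for Inha and -0.28 for Fst, and the change of the DSS effect -0.45 for Inhbb. Amhr2 for DSS at day 89 was 0.01 scaled to own totals. Without the 3 libraries of high mitochondrial share, day 89 against day 7 was -0.06 for Inha and -0.25 for Fst in DSS ovaries and -1.40 for Inhba, -1.01 for Inhbb and -0.04 for Fst in control ovaries. With the term for them it was -0.13 for Fst in DSS ovaries and -0.89 for Inhba, -0.97 for Inhbb, -0.37 for Fst and -0.17 for Inha in control ovaries, DSS at day 7 was -0.41 for Fst, and the change of the DSS effect was 0.31 for Inha and 0.24 for Fst. With each library left out, DSS at day 7 ranged from -0.24 to 0.42 for Fst and -0.63 to 0.23 for Inhbb, and DSS at day 89 from -0.40 to 0.86 for Inhba, -0.27 to 0.31 for Inhbb, -0.44 to 0.28 for Amh, -0.27 to 0.15 for Amhr2 and -0.46 to 0.22 for Fst. Day 89 against day 7 ranged from -0.06 to 0.83 for Inha and -0.25 to 0.41 for Fst in DSS ovaries, and from -0.36 to 1.50 for Inhba, -0.24 to 0.61 for Inhbb and -0.04 to 0.63 for Fst in control ovaries. The change of the DSS effect ranged from -0.20 to 0.66 for Inhbb, -0.77 to 0.12 for Inha and -0.59 to 0.18 for Fst. Of the log2 ratios, day 89 against day 7 in DSS ovaries ranged from -0.20 to 0.10 for Inhbb to Inha and -0.34 to 0.29 for Amh to Amhr2, and in control ovaries from -1.13 to 0.69 for Inhba to Inha, -0.12 to 0.92 for Inhba to Inhbb, -0.30 to 0.50 for Fst to both beta subunits and -0.80 to 0.26 for Amh to Inha. DSS at day 89 ranged from -0.62 to 0.38 for Inhba to Inha, -0.13 to 0.56 for Inhba to Inhbb and -0.25 to 0.29 for Amh to Amhr2. The 5 calls of single genes kept their direction in all alternatives, and 26 of their 86 alternative fits did not pass.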
